A study of Mus musculus with 6 samples.

Results

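The genes described here are the IL-6 family cytokines *Il6*, *Lif*, *Osm*, *Il11* and *Clcf1* and the receptor chains *Il6ra*, *Il6st* and *Lifr*, 8 of the 34787 gene names on the arrays. They were chosen by gene name, and every non-control probe that carries such a name was taken, which gave 10 of 55681 probes. *Lifr* had 3 probes and each other gene had 1. The arrays measured messenger RNA of murine bone marrow–derived macrophages (BMDMs), grown from wild-type female C57BL/6 mice for 7 days in medium conditioned by L929 fibroblasts, a source of macrophage colony-stimulating factor. The mice were 6 to 8 weeks old per the labels. The methods text gives an older range. The first group was untreated. The second received lipopolysaccharide (LPS), the ligand of TLR4 from the outer membrane of Gram-negative bacteria, for 4 h. The third, called LPS+USP7i, received 10 μM HBX41,108, a compound that inhibits the enzymatic activity of the deubiquitinase USP7, 30 min before the same LPS stimulation. The LPS dose was 100 ng/ml in the series text and the paper, whereas the sample labels write 100 ng/μl. Each group held 2 arrays, from independent experiments per the series text. No group received the inhibitor without LPS, and neither the labels nor the paper's text say whether the LPS group received the solvent of HBX41,108, so the comparison of LPS+USP7i with LPS includes any effect of the solvent.

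Cytokines of this family signal through gp130, the protein that *Il6st* encodes. IL-6 first binds the IL-6 receptor α chain, the product of *Il6ra*, and IL-11 binds its own α chain, and each complex then engages a gp130 homodimer. LIF, oncostatin M and cardiotrophin-like cytokine factor 1 signal through gp130 paired with the LIF receptor or, for oncostatin M, with the oncostatin M receptor. The receptors activate JAK kinases and STAT3, and STAT3 induces SOCS3, which binds gp130 and limits the signal. In macrophages *Il6* is a classical TLR-induced gene that depends on NF-κB and C/EBP factors. Comparing LPS with untreated cells asks how these genes responded to TLR4 stimulation, and comparing LPS+USP7i with LPS asks how that response differed when USP7 was inhibited.

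All 6 arrays lay on 1 slide and were read in 1 scan. The untreated samples lay in slide row 1, the LPS samples in row 2 and the LPS+USP7i samples in row 4, so slide row and treatment cannot be told apart. Between 25002 and 27467 of 59305 spots per array were well above background, and 0 spots were saturated. Across the 20705 probes above background on every array, replicate arrays differed with an SD of 0.29 in untreated, 0.34 in LPS and 0.40 in LPS+USP7i cells on the log2 scale. All 10 macrophage markers listed for this work, including *Csf1r*, *Adgre1* and *Cd68*, were above background, and their summed level was 19.77 to 19.79 (log2) in untreated, 19.82 to 19.85 in LPS and 19.47 to 19.58 in LPS+USP7i cells. Of these markers, *Cd14* and *Spi1* were called higher and *Itgam* lower with LPS. *Fcgr1* and *Cd14* fell by 1.60 and 1.31 with the inhibitor (adjusted p = 0.0317 and 0.0184 from limma). A dimmer *Cd68* probe was called lower with LPS (−0.43, adjusted p = 0.0185) and higher with the inhibitor (0.43, adjusted p = 0.0332). The median of the 10 markers was then −0.51, 7 of them being lower than with LPS. At an unadjusted p under 0.05, 6 were lower and 1 higher. That p was reached by 26% of all gene names in the same fit, and by 40.9% in a separate fit with dim probes left out. Of 10 fibroblast and stromal markers, which cover a cell type that makes several of these cytokines, 6 including *Col1a1*, *Col3a1* and *Pdgfra* were above background on no array. Their summed level was 6.74 to 6.84 in untreated, 9.18 to 9.30 in LPS and 6.93 to 6.98 in LPS+USP7i cells, and only *Pdgfrb* passed the test, with a rise of 5.29 after LPS (adjusted p = 0.0321). The part of these marker changes in the results below was not tested. In bulk RNA a lower level in each cell and fewer cells that express a gene cannot be told apart.

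Values below are log2 of the quantile-normalized signal, and differences are on the same log2 scale. A difference given for a replicate is between arrays with the same replicate number. The labels do not say that such arrays belong together, and the model did not pair them. A gene was called changed at an adjusted p value under 0.05 from limma, with Benjamini-Hochberg adjustment over 55680 probes. *Lifr* enters the counts through its brightest probe, the one with the highest mean over the 6 arrays. In untreated cells another of its probes was brighter (8.74 against 8.03). LPS raised 3 of the 8 genes, *Il6*, *Clcf1* and *Osm*, and lowered 2, *Il6ra* and *Il6st*. *Lif*, *Il11* and the brightest probe of *Lifr* did not pass the test. The other 2 *Lifr* probes were called lower (−5.28, adjusted p = 0.0062, and −0.89, adjusted p = 0.0471). Among all gene names 7.98% were called higher and 12.8% lower, 20.7% together. In LPS+USP7i compared with LPS, *Il6st* was higher and *Clcf1* was lower, and 6 genes did not pass the test. Among all gene names 5.52% were called higher and 4.27% lower in that comparison, 9.79% together. The median difference over the 8 genes was 0.33 for LPS minus untreated and 0.41 for LPS+USP7i minus LPS, and over all gene names it was 0.0016 and 0.0009. Uncalled genes set both medians of the 8. The first lay between *Lif* (0.33) and *Il11* (0.32), neither well above background in those groups. The second lay between *Lif* and *Osm* (0.41 each). The called genes went in both directions. The arrays of the 2 groups did not overlap for 7 of the 8 genes in each comparison, against 60.9% of gene names for LPS minus untreated and 52.1% for LPS+USP7i minus LPS. The same LPS arrays enter both comparisons, whose values are therefore not independent.

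**Figure D1:**
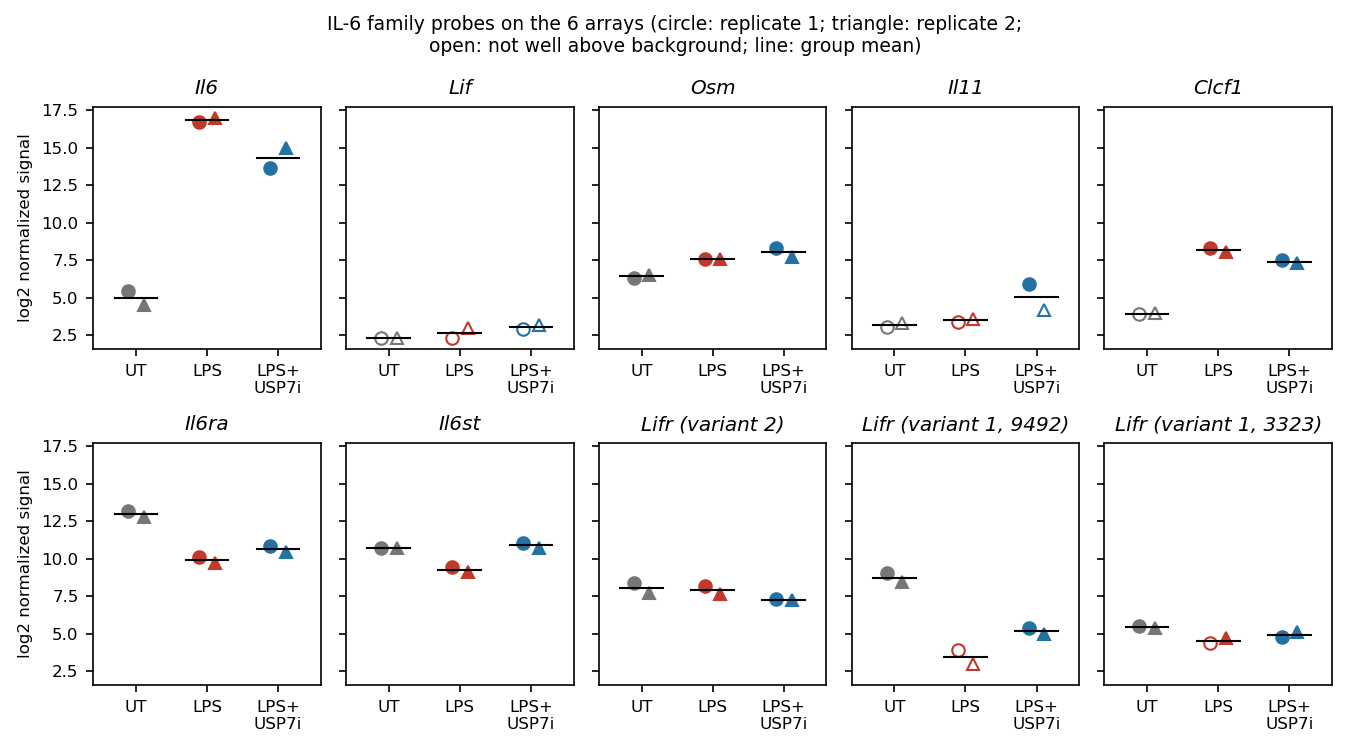
Each panel plots the log2 normalized signal (vertical axis) of 1 probe in untreated (UT), LPS and LPS+USP7i cells (horizontal axis), 2 arrays per group. Circles are replicate 1, triangles replicate 2, open symbols are not well above background and lines are group means. *Il6* goes from 4.99 to 16.84 with LPS and stands at 14.29 with the inhibitor, *Il6ra* goes from 12.97 to 9.91 and 10.63, and *Il6st* from 10.71 to 9.27 and 10.89.

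The promoter of *Il6* is shown because this gene has a κB site, the DNA element bound by NF-κB, directly upstream of its start. The 250 bases before the RefSeq start, at chr5:30012864-30013113 of GRCm38.p6 on the plus strand, were searched on both strands for the κB consensus, AP-1 (TGANTCA), C/EBP (TTGCNNAA), CRE (TGACGTCA) and STAT (TTCNNNGAA) motifs. Capitals mark, from left to right, an AP-1 match that begins 249 bases before the start, a C/EBP match at 128 bases and a κB match at 44 bases, none of which overlap.

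*Il6* promoter: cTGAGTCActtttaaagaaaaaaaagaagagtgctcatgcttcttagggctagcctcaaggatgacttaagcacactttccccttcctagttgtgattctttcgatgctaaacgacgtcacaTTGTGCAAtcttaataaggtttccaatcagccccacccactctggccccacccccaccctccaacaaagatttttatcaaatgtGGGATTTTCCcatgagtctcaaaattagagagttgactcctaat

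A κB match is found in 3.9% of 32851 promoter windows of the same length, an AP-1 match in 6.75% and a C/EBP match in 9.56%. CRE and STAT letters, present in 1.55% and 7.02% of windows, were not in the *Il6* window. The promoter table used here gave 8 windows for 6 of the genes, all but *Osm* and *Clcf1*. An AP-1 match was also found in 1 of 2 *Il11* windows, 98 bases before the start, and in the *Lif* window at 228 bases. No match to any of these motifs was found in the windows of *Il6ra*, *Il6st* and *Lifr*. Such a match is a description of letters and does not show that a factor binds.

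The probes behind the called members were 60 bases long, and their first 30 bases are shown so that the measured stretch of each transcript can be seen. The order is *Il6*, *Clcf1*, *Osm*, *Il6ra* and *Il6st*, and then the *Lifr* probes designed to transcript variant 2, to variant 1 at transcript position 9492 and to variant 1 at position 3323, as the array annotation names them.
Il6: ctgttacctagccagatggtttcttggaat
Clcf1: gttcagccaaggacttcaaccggcttaaga
Osm: tgtcccctactaccactcaggacttcaagg
Il6ra: aggaccaagtgcagtaacggtagcccaaac
Il6st: atcttctcacagtaagcagtctagttatgg
Lifr variant 2: taaaaacttggaaatgtatccaggcctaac
Lifr variant 1 at 9492: catagatgatgtaaatagcctaagacactg
Lifr variant 1 at 3323: agaacaaaccaaatgactaaccaggtcacc

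*Il6*, which encodes the proinflammatory cytokine IL-6, had the largest rise of the 8 genes after LPS. Its probe, at chr5:30346367-30346426 (plus strand, mm9, the build of the array annotation), read 5.44 and 4.54 in untreated, 16.71 and 16.97 in LPS, and 13.63 and 14.95 in LPS+USP7i cells. In processed signal units before normalization, these were 47.5 and 32.5, then 106500 and 147700, and then 9550 and 32680. The 3 groups did not overlap, both inhibitor arrays lay between the untreated and the LPS arrays, and the inhibitor arrays were the furthest apart. LPS raised *Il6* by 11.86 (SE 0.57, adjusted p = 0.00326), or 3710-fold. In LPS+USP7i cells it was 5.87-fold below LPS, a difference of −2.55 (SE 0.57, 95% interval −4.13 to −0.98), −3.08 in replicate 1 and −2.03 in replicate 2. This difference did not pass the test (adjusted p = 0.0831, unadjusted p = 0.0107), and it was −1.90 without LPS+USP7i replicate 1 and −3.21 without LPS+USP7i replicate 2. It passed with another background correction, normexp (adjusted p = 0.00839), with dim probes left out (0.0196) and with the table of log2 values the authors deposited (0.0284). Relative to untreated cells, *Il6* was still 632-fold higher with the inhibitor (9.30, SE 0.57, adjusted p = 0.00644), so that 78.5% of the log2 rise remained. The rises over untreated cells were called but smaller with normexp, 10.15 for LPS and 7.58 for LPS+USP7i, and in the deposited table, 11.17 and 8.53.

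*Clcf1*, which encodes a ligand that acts through gp130 and the LIF receptor together with the ciliary neurotrophic factor receptor, was the other strongly induced cytokine. At chr19:4222480-4222539 (plus strand, mm9) it read 3.88 and 3.97 in untreated, 8.28 and 8.05 in LPS, and 7.48 and 7.33 in LPS+USP7i cells. The groups did not overlap, and the untreated arrays were not well above background. In this processing LPS raised *Clcf1* at least 18.9-fold (4.24, SE 0.11, adjusted p = 0.00249), where the bound sets the untreated level to the lowest signal well above background or its own signal, whichever was higher. With the inhibitor it was 1.69-fold lower than with LPS alone (−0.76, SE 0.11, 95% interval −1.07 to −0.45, adjusted p = 0.0379), −0.80 and −0.72 in the 2 replicates. This call was lost in 11 of 14 alternative analyses, including each that left out 1 of the 6 arrays, where the adjusted p was 0.104 without either untreated array, 0.102 and 0.0653 without LPS replicate 1 and 2, and 0.0943 and 0.0983 without LPS+USP7i replicate 1 and 2. *Clcf1* stayed at least 11.1-fold above untreated cells with the inhibitor (3.48, SE 0.11, adjusted p = 0.00399). Both differences from untreated cells were called but smaller in other processing, 2.24 and 1.62 with normexp and 3.38 and 2.66 in the deposited table.

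*Osm*, which encodes oncostatin M, a cytokine made by activated macrophages, rose less. At chr11:4140146-4140205 (plus strand, mm9) it read 6.30 and 6.54 in untreated, 7.60 and 7.60 in LPS, and 8.31 and 7.71 in LPS+USP7i cells. Both LPS arrays were above both untreated arrays, and both inhibitor arrays were above both LPS arrays. LPS raised *Osm* 2.27-fold (1.18, SE 0.23, adjusted p = 0.0415), a call lost without untreated replicate 1 (adjusted p = 0.169) or 2 (0.128) and without LPS replicate 1 (0.154) or 2 (0.146). The inhibitor did not give a called difference from LPS (0.41, SE 0.23, 95% interval −0.23 to 1.05, adjusted p = 0.455). *Osm* was 3.02-fold higher in LPS+USP7i than in untreated cells (1.60, SE 0.23, adjusted p = 0.0263), which was lost without any 1 of the untreated arrays (adjusted p = 0.122 and 0.102) or LPS arrays (0.0758 for each). Among the 3 ligands called with LPS, the inhibitor thus went with lower values of *Il6* and *Clcf1* on both arrays and with higher values of *Osm*, of which only that of *Clcf1* passed the test.

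The last 2 ligands were near or below background. *Lif*, which encodes leukemia inhibitory factor (chr11:4172032-4172091, plus strand, mm9), read 2.30 and 2.31 in untreated, 2.33 and 2.95 in LPS, and 2.91 and 3.19 in LPS+USP7i cells and was well above background on no array, so no fold is given. *Il11*, which encodes interleukin-11 (chr7:4724847-4724906, minus strand, mm9), read 3.04 and 3.28 in untreated, 3.38 and 3.59 in LPS, and 5.90 and 4.17 in LPS+USP7i cells. It was above background only on the array of LPS+USP7i replicate 1. The inhibitor difference of *Il11* from LPS was 1.55 (SE 0.62, 95% interval −0.16 to 3.26, adjusted p = 0.262). It rested on that array, being 0.69 without it and 2.41 without LPS+USP7i replicate 2. It was 0.36 with normexp and 0.71 in the deposited table.

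Of the receptor genes, *Il6ra* and *Il6st* fell with LPS. *Il6ra* encodes the ligand-binding IL-6 receptor α chain. At chr3:89674054-89674113 (minus strand, mm9) it read 13.17 and 12.77 in untreated, 10.14 and 9.69 in LPS, and 10.85 and 10.42 in LPS+USP7i cells. The groups did not overlap, and the inhibitor arrays lay between the others, nearer to LPS. *Il6ra* was 8.34-fold lower with LPS than without (−3.06, SE 0.27, adjusted p = 0.00693). With the inhibitor it was 1.65-fold above LPS, 0.71 and 0.73 in the 2 replicates, which did not pass the test (0.72, SE 0.27, 95% interval −0.01 to 1.46, adjusted p = 0.226). It remained 5.06-fold below untreated cells (−2.34, SE 0.27, adjusted p = 0.0159), a call lost without untreated replicate 1 (adjusted p = 0.0772) or 2 (0.0671) or LPS+USP7i replicate 2 (0.0577).

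*Il6st*, the gene of the shared signal-transducing chain gp130, was the gene with a called rise in LPS+USP7i compared with LPS. At chr13:113296586-113296645 (plus strand, mm9) it read 10.73 and 10.70 in untreated, 9.46 and 9.08 in LPS, and 11.05 and 10.72 in LPS+USP7i cells. Both LPS arrays were below the other 4 arrays, and the inhibitor and untreated arrays overlapped. LPS lowered *Il6st* 2.72-fold (−1.44, SE 0.19, adjusted p = 0.0158), a call lost without untreated replicate 1 (adjusted p = 0.0846) or 2 (0.0859) or LPS replicate 2 (0.0512). With the inhibitor *Il6st* was 3.06-fold higher than with LPS alone (1.61, SE 0.19, 95% interval 1.10 to 2.13, adjusted p = 0.0252), 1.59 and 1.64 in the 2 replicates. This call was kept without LPS+USP7i replicate 2 (adjusted p = 0.0455) and lost without each other array, with an adjusted p of 0.0835 without either untreated array, 0.0545 and 0.0697 without LPS replicate 1 and 2, and 0.0765 without LPS+USP7i replicate 1. The difference between LPS+USP7i and untreated cells was 0.17 (SE 0.19, 95% interval −0.34 to 0.69, adjusted p = 0.686), and this interval leaves room for levels somewhat below or above untreated.

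**Figure D2:**
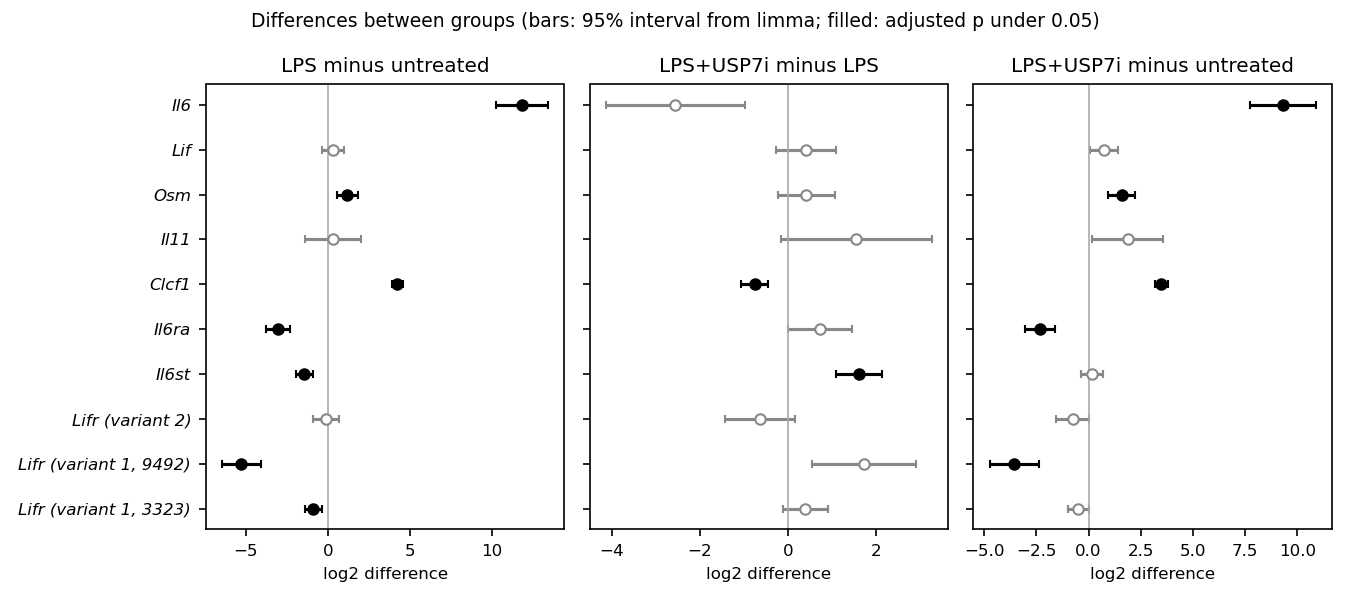
The log2 difference (horizontal axis) of each probe (vertical axis) is plotted for the 3 comparisons, with the 95% interval from limma as bars and filled symbols for an adjusted p under 0.05. The horizontal scale differs between panels. In the middle panel *Il6st* lies at 1.61 and *Clcf1* at −0.76, both filled, and *Il6* lies at −2.55 with an open symbol.

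*Lifr*, the gene of the LIF receptor chain that pairs with gp130, gave different answers at its 3 probes on chromosome 15 (all plus strand, mm9). The brightest probe, designed to transcript variant 2 (chr15:7135072-7135131), read 8.35 and 7.70 in untreated, 8.14 and 7.67 in LPS, and 7.32 and 7.21 in LPS+USP7i cells. Its untreated and LPS arrays overlapped, and both inhibitor arrays were the lowest. It gave −0.12 for LPS minus untreated (95% interval −0.91 to 0.67, adjusted p = 0.91), which turned to 0.20 without untreated replicate 1 and 0.11 without LPS replicate 2, and −0.64 for LPS+USP7i minus LPS (95% interval −1.44 to 0.15, adjusted p = 0.32).

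The probe to variant 1 at position 9492 (chr15:7147319-7147378) read 9.06 and 8.42 in untreated, 3.93 and 2.99 in LPS, and 5.39 and 4.98 in LPS+USP7i cells. The groups did not overlap, and the LPS arrays were not well above background. At this probe and in this processing LPS lowered the signal at least 19.1-fold (−5.28, SE 0.43, adjusted p = 0.0062). With the inhibitor it was 1.72 above LPS, which did not pass the test (SE 0.43, adjusted p = 0.103). This was 1.62-fold with the LPS level set to the lowest signal well above background. It was 11.8-fold below untreated cells, which did pass (−3.56, SE 0.43, adjusted p = 0.0177). The last call was lost without untreated replicate 1 (adjusted p = 0.0837) or 2 (0.0709) and without LPS+USP7i replicate 1 (0.0624) or 2 (0.0733). In the order LPS minus untreated, LPS+USP7i minus LPS and LPS+USP7i minus untreated, this probe gave −2.68, 0.41 and −2.27 with normexp and −3.96, 1.04 and −2.92 in the deposited table. The probe to variant 1 at position 3323 (chr15:7141150-7141209) read 5.48 and 5.36 in untreated, 4.34 and 4.72 in LPS, and 4.77 and 5.08 in LPS+USP7i cells. It was above background on 1 of 2 LPS arrays. It fell by 0.89 with LPS (SE 0.18, adjusted p = 0.0471), a call kept in 5 of 14 alternative analyses and lost without any 1 of the arrays (adjusted p from 0.0643 to 0.186), and did not pass for LPS+USP7i minus LPS (0.40, SE 0.18, adjusted p = 0.341). Both variant 1 probes were thus lower with LPS, but by unequal amounts (−5.28 and −0.89), whereas the variant 2 probe showed no called change. Within an array, the log2 difference of the variant 2 probe from the variant 1 probe at 9492 was −0.71 and −0.72 in untreated, at least 3.70 and 3.14 in LPS, where the variant 1 signal was set to the lowest signal well above background, and 1.93 and 2.23 in LPS+USP7i cells. This shift between groups shows unequal change at the 2 probes and says nothing of which transcript was more abundant. From the variant 1 probe at 3323 the variant 2 probe differed by 2.87 and 2.34 in untreated and 2.55 and 2.13 in LPS+USP7i cells. In LPS cells this was at least 3.70 in replicate 1 and 2.95 in replicate 2. Probe 9492 minus probe 3323 was 3.58 and 3.06 in untreated, −0.41 and −1.72 in LPS, and 0.62 and −0.11 in LPS+USP7i cells. The LPS signal at 9492 was not well above background. The large shift was thus at the probe at 9492, not at both variant 1 probes. Whether the 3 probes also detect each other's transcript was not tested.

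**Figure D3:**
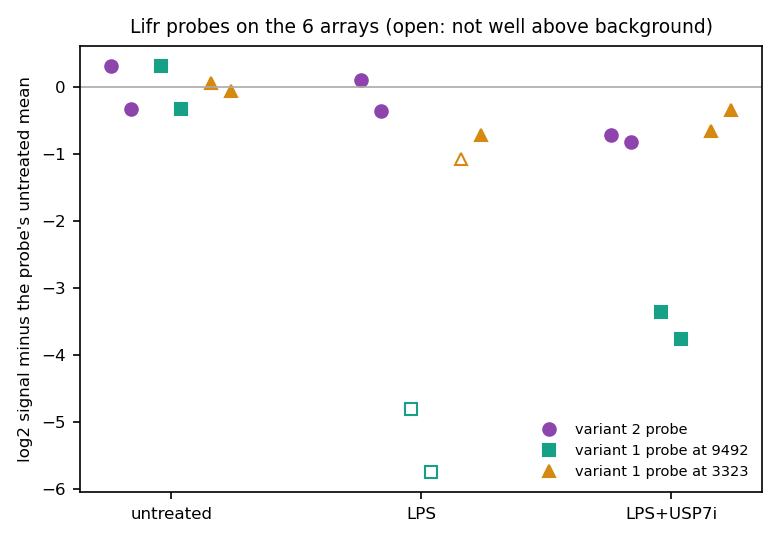
The log2 signal of each *Lifr* probe minus that probe's untreated mean (vertical axis) is plotted on the 2 arrays of each group (horizontal axis), replicate 1 left of replicate 2, with open symbols where the probe was not well above background. The variant 1 probe at 9492 differs from untreated by a mean of −5.28 in LPS, the variant 1 probe at 3323 by −0.89 and the variant 2 probe by −0.12.

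LPS+USP7i was also compared with untreated cells, which asks how much of the response to LPS was present with the inhibitor. *Il6*, *Clcf1* and *Osm* were called higher and *Il6ra* lower. The other 4 genes did not pass the test, *Lifr* again being taken at its brightest probe. Among all gene names 6.16% were called higher and 8.71% lower, 14.9% together. The arrays of these groups did not overlap for 7 of the 8 genes, against 58.3% of gene names. *Il6st* was the gene whose arrays overlapped. The median difference was 1.17 over the 8 genes and −0.0021 over all gene names. The former lay between *Osm* (1.60) and *Lif* (0.74), which was above background on no array.

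Genes with the most similar pattern were ranked by Euclidean distance over the 6 log2 values, each probe centered on its own mean, among 13258 candidates above background in at least 1 group and matched to RefSeq. For *Il6* the nearest were *Ptgs2*, the gene of cyclooxygenase-2 (distance 1.88), the adhesion molecule gene *Vcam1* (1.98) and the activation marker gene *Cd69* (2.20). They differed by 10.10, 10.12 and 10.16 with LPS and by −1.33, −2.46 and −2.80 with the inhibitor relative to LPS. For *Clcf1* they were *Nod2*, which encodes a sensor of bacterial peptidoglycan (0.35), *Fzd1* (0.38) and *AW011738* (0.44). For *Osm* they were *Prrg4* (0.29), *Fem1c* (0.36) and the nuclear receptor gene *Nr4a2* (0.36). For *Il6ra* they were *Kmt5c* (0.34), *Aatk* (0.37) and *Fut7* (0.46). For *Il6st* they were the tyrosine kinase gene *Tec* (0.19), *Zfp655* (0.25) and *D10Wsu102e* (0.27), which were 1.58, 1.46 and 1.37 higher with the inhibitor than with LPS. For the variant 2 probe of *Lifr* they were *AB124611* (0.22), *Gatm* (0.24) and *1700016K19Rik* (0.25).

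Of 12 other cytokine and receptor genes of the family found on the arrays, 6 were above background on no array, among them *Osmr*, the gene of the oncostatin M receptor. LPS raised *Il27* and *Ebi3*, which encode the subunits of IL-27, by 5.98 (SE 0.45, adjusted p = 0.00558) and 1.77 (SE 0.098, adjusted p = 0.00377) and lowered *Il11ra1*, the gene of the IL-11 receptor α chain, by 0.91 (adjusted p = 0.037). With the inhibitor *Il27* fell by 3.40 (adjusted p = 0.0313) and *Ebi3* by 2.03 (adjusted p = 0.0106) relative to LPS. *Cntf*, the gene of ciliary neurotrophic factor, was 0.96 higher (adjusted p = 0.0221), although its dimmer probe gave 0.13 (adjusted p = 0.662). *Il11ra1* was 0.81 higher, which did not pass (adjusted p = 0.0723). The median of the 12 genes was −0.19 with LPS and −0.23 with the inhibitor relative to LPS. In each comparison 3 of the 12 were called, against 20.7% of all gene names with LPS and 9.79% with the inhibitor.

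Among 15 genes of gp130 signal transduction and its brakes, LPS raised 7 and lowered 3 (median 0.30). Of all gene names, 7.98% were called higher and 12.8% lower with LPS. The feedback inhibitor genes *Socs3* and *Socs1* rose by 7.91 (SE 0.27, adjusted p = 0.00261) and 7.45 (SE 0.37, adjusted p = 0.00338), the kinase gene *Jak2* by 3.94 (SE 0.27, adjusted p = 0.00493), the phosphatase gene *Ptpn2* by 1.64 (adjusted p = 0.00412) and *Stat3* by 1.10 (adjusted p = 0.0235). Relative to LPS, the inhibitor lowered 4 and raised 0 of the 15 (median −0.61), against 4.27% and 5.52% of all gene names. At an unadjusted p under 0.05 in limma, 9 of the 15 were lower and 2 higher. That p was reached by 26% of all gene names. In a separate fit with dim probes left out, it was reached by 9 of the 15 and by 40.9% of gene names. All 15 genes were above background in at least 1 group. *Jak2* fell by 2.24 (adjusted p = 0.0268), *Tyk2*, another receptor-bound kinase gene, by 1.67 (adjusted p = 0.0121), and the phosphatase genes *Ptpn6* and *Ptpn2* by 1.48 (adjusted p = 0.0181) and 0.61 (adjusted p = 0.0436). *Stat3* and *Socs3* differed by −0.98 (adjusted p = 0.0503) and −1.56 (adjusted p = 0.0515), which did not pass.

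Among 20 target genes of STAT3, LPS raised 11 and lowered 5 (median 1.22), led by *Socs3* and by *Timp1*, *Saa3* and *Lcn2*, which rose by 3.94, 3.21 and 3.09 (adjusted p = 0.0354, 0.0192 and 0.00772). With the inhibitor 5 were called lower and 4 higher than with LPS (median −0.32). Of all gene names, 7.98% were called higher and 12.8% lower with LPS, and 5.52% higher and 4.27% lower with the inhibitor. Of the 20 genes, 19 were above background in at least 1 group. At an unadjusted p under 0.05 in limma, 9 were lower and 6 higher with the inhibitor. That p was reached by 26% of all gene names. In a separate fit with dim probes left out, it was reached by 15 of the 20 and by 40.9% of gene names. The acute-phase genes *Saa3* and *Lcn2* fell by 2.97 and 2.55 (adjusted p = 0.0399 and 0.0237), and the transcription factor genes *Cebpd* and *Batf* by 2.68 and 2.27 (adjusted p = 0.0144 and 0.0113). The 4 that were called higher, named after their values were seen, were *Vegfa* (2.26), *Fos* (1.08), *Cebpb* (0.94) and *Il4ra* (0.84). The dimmer probe of *Il4ra* gave 0.20 (adjusted p = 0.553) and that of *Vegfa* 2.43 (adjusted p = 0.0729), neither of which passed. Most of these genes respond to factors other than STAT3 as well.

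Of 20 regulators of *Il6* transcription and mRNA stability, 14 were higher and 2 lower with LPS at an unadjusted p under 0.05 in limma. That p was reached by 33.1% of all gene names. In a separate fit with dim probes left out, it was reached by 15 of the 20 and by 54.7% of gene names. At the adjusted p, 7.98% of all gene names were higher and 12.8% lower with LPS. LPS raised 13 of the 20 regulators and lowered 0 (median 0.96). These included *Nfkbiz*, the gene of IκBζ, which *Il6* induction requires (5.53, SE 0.26, adjusted p = 0.00324), *Arid5a*, whose product stabilizes *Il6* mRNA (5.08, SE 0.21, adjusted p = 0.00289), *Irf1* (3.90, adjusted p = 0.00446), and *Zc3h12a*, whose product Regnase-1 degrades *Il6* mRNA (3.25, adjusted p = 0.00304). *Rel*, the gene of c-Rel, rose at least 4.76-fold (adjusted p = 0.00267). With the inhibitor 5 were lower and 3 higher than with LPS (median −0.14), against 4.27% and 5.52% of all gene names. *Cebpd* fell by 2.68, *Nfkb1* by 1.45 (adjusted p = 0.0134) and *Arid5a* by 1.39 (adjusted p = 0.0375). The other called decreases, named after their values were seen, were *Rel*, which fell by 1.11 (adjusted p = 0.0303), and *Rela*, the gene of NF-κB p65, which fell by 0.54 (adjusted p = 0.0236). *Fosl1*, the gene of the AP-1 protein FRA-1, was above background only with the inhibitor and was at least 59.3-fold higher than with LPS (adjusted p = 0.0104). The other called increases, also named after their values were seen, were *Cebpb* (0.94, adjusted p = 0.0307) and *Atf3* (0.51, adjusted p = 0.041). *Nfkbiz* and *Zc3h12a* differed by −1.47 (adjusted p = 0.0545) and −0.43 (adjusted p = 0.179) and did not pass. *Irf1* differed by −0.52 (adjusted p = 0.371), although its dimmer probe was called lower (−1.83, adjusted p = 0.012).

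These list counts changed when 1 array was left out. Every such fit has fewer residual degrees of freedom. Leaving out an untreated array does not change any difference between LPS+USP7i and LPS, those of *Clcf1* and *Il6st* included. For LPS+USP7i minus LPS, no gene of any list, and no gene on the arrays, passed without untreated replicate 1 or 2, where the smallest adjusted p from limma was 0.0561 and 5 of the 12, 9 of the 15, 15 of the 20 STAT3 targets and 11 of the 20 regulators had an unadjusted p under 0.05, as did 23% of all gene names. Leaving out any other array gave from 1 to 4 of the 12, from 1 to 6 of the 15, from 2 to 5 of the 20 STAT3 targets and from 2 to 6 of the 20 regulators. For LPS minus untreated, leaving out 1 array gave from 2 to 3, from 4 to 9, from 7 to 14 and from 10 to 14 called genes in the same order.

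**Figure D4:**
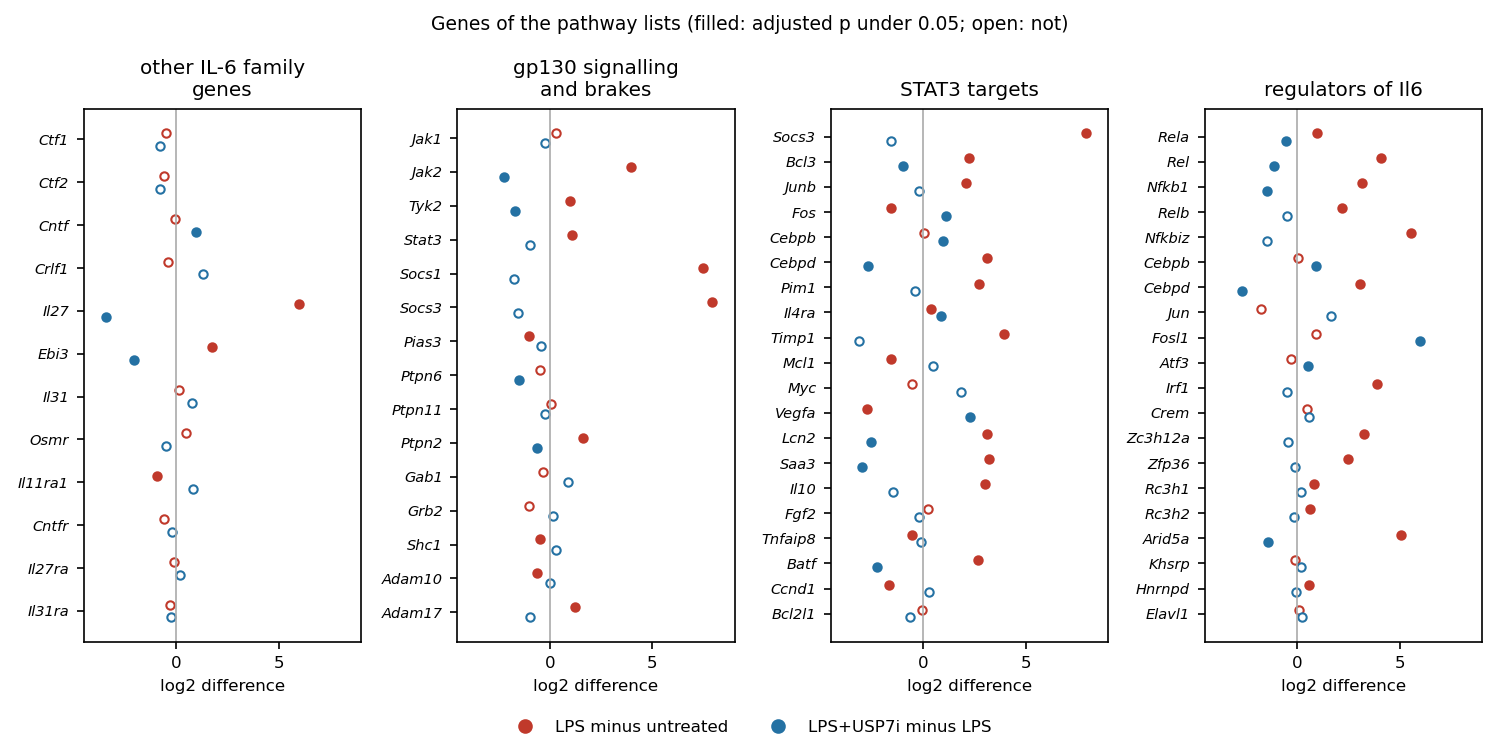
Each gene of the 4 pathway lists (vertical axis) is plotted by its log2 difference (horizontal axis) for LPS minus untreated (red) and LPS+USP7i minus LPS (blue), filled where the adjusted p was under 0.05. In the gp130 signaling panel 7 red symbols are filled to the right of 0 and 4 blue symbols to the left, and in the panel of *Il6* regulators *Fosl1* is the blue symbol farthest to the right, at 6.00.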

How the data were processed

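RNA from 6 BMDM cultures (200 ng each) was labeled with Cy3 and hybridized to 1-color Agilent mouse arrays. The authors deposited scanner output with spot intensity values that Agilent Feature Extraction 10.7.3.1 had already background-corrected, together with a log2 table whose values, per the labels and methods, were quantile-normalized. The methods name limma, quantile normalization and an adjusted p value of 0.05. Here the deposited processed signal intensity was taken as log2, flagged outlier spots were left out, arrays were quantile-normalized over non-control spots, and spots of a probe were averaged. All 6 arrays entered 1 linear model in limma 3.58.1 (R 4.3.3), with 3 residual and 1.05 prior degrees of freedom, and p values were adjusted over 55680 probes by the Benjamini-Hochberg method. A gene in a list or count is its brightest probe. The number of arrays limits precision: an exact permutation test of 2 against 2 arrays cannot give a two-sided p under 0.333. In a simulated comparison of LPS+USP7i with LPS over 55633 probes, limma recovered 117 of 200 probes changed by 3 on the log2 scale (58.5%) and called 10 others.

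The genes named here, the lists and the alternatives were chosen with earlier results of these data known. Named genes are the 8 members, the 4 called genes of each list with the largest difference and a preset few of the pathway; 1 gene of the gp130 signaling list is not reported here. The 8 marker lists cover macrophages, fibroblasts, B cells, T cells, neutrophils, dendritic cells, mast cells and endothelium. Gene names and promoters are from RefSeq (GRCm38.p6), and 22221 of 34787 gene names matched. Alternatives were another scaling, background correction, filter, variance prior and fit, the replicate as a block, the deposited log2 table, the mean of all probes of a gene, and leaving out each array.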

Additional observations from a re-analysis of the deposited data

How the results depend on the processing

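The limma tests, which are two-sided, were repeated under each alternative. For LPS+USP7i minus LPS, 2 of the 8 genes were called in the main fit. Only *Il6st* was called with 75th percentile scaling, with a trended prior variance and with an absolute log2 difference of at least 1. In a fit of only the groups compared 0 were called (3 at an unadjusted p under 0.05, against 23% of all gene names). With normexp and with dim probes left out 3 were called, *Il6*, *Clcf1* and *Il6st*. The deposited log2 table gave 2, *Il6* and *Il6st*. Leaving out 1 array gave from 0 to 2 called genes, 2 (*Il11* and *Il6st*) without LPS+USP7i replicate 2 and 0 without any one of the other 5 arrays. At an unadjusted p under 0.05 these were 3 to 5 of 8, against 23% to 26.8% of all gene names. Leaving out 1 array gave 3 to 5 for LPS minus untreated and 2 to 4 for LPS+USP7i minus untreated. The variant 2 probe of *Lifr* reversed for LPS minus untreated, to 0.20 without untreated replicate 1 and 0.11 without LPS replicate 2, within a range from −0.44 to 0.20 over the analyses without 1 array. The cause was not tested. Of 414 values of single probes, 354 kept their direction and side of the threshold.

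The labels do not say that a replicate number marks a shared culture or day, although deviations of same-numbered arrays correlated (r = 0.47, 0.40 and 0.42 over 20705 probes). With the replicate block, 2 genes, *Il6ra* (0.72, adjusted p = 0.0383) and *Il6st* (1.61, adjusted p = 0.038), were called for LPS+USP7i minus LPS, 4 for LPS minus untreated and 3 for LPS+USP7i minus untreated, *Osm* being lost in both. *Clcf1* was then not called for LPS+USP7i minus LPS (adjusted p = 0.0606), and the *Lifr* variant 1 probe at 9492 was (1.72, adjusted p = 0.0422).

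75th percentile scaling moved the median of all gene names by 0.40 for LPS minus untreated, and called genes went from 38.4% to 75% higher. Under it *Lif* was also called, 0.82 (adjusted p = 0.00952). With the mean of all probes of a gene, *Lifr* was called in both comparisons with untreated cells. That gave 6 called genes for LPS minus untreated and 5 for LPS+USP7i minus untreated.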

Other observations

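The other marker lists showed few called genes. *Zbtb46*, a dendritic cell marker, rose at least 5.65-fold with LPS (adjusted p = 0.00435), and *Pax5*, a B cell marker, was at least 1.39-fold higher with the inhibitor than with LPS (adjusted p = 0.0244). At their brightest probes, the T cell, neutrophil, mast cell and endothelial lists had 0 called genes by limma in LPS minus untreated and in LPS+USP7i minus LPS. At an unadjusted p under 0.05, 0 or 1 of each list passed in either direction. Dimmer probes of *Vwf* (−1.23, adjusted p = 0.0263) and *Kdr* (1.38, adjusted p = 0.0313) were called with LPS. A dimmer *Cd4* probe, not well above background, was called with the inhibitor (−0.49, adjusted p = 0.0403). The summed level of the neutrophil list was 12.36 and 12.76 (log2) in untreated, 12.52 and 13.53 in LPS, and 12.60 and 13.26 in LPS+USP7i cells.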
